A study of Mus musculus with 6 samples.

Results

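The 33 genes described here encode enzymes of bile acid synthesis, hepatic transporters of bile acids, other organic anions and bile phospholipids, and the receptor pair through which FGF15 restrains synthesis. They were taken by symbol from a deposited table of 15092 genes of mouse liver. The table held values for 6 libraries of C57BL/6J mice, 3 titled wild type (WT) and 3 titled CRY1 KO, a knockout of the clock repressor Cry1. The labels name liver as tissue and hepatocyte as cell type, describe no sorting of cells, record no treatment and carry the prefix NC in every title without saying what it means. They give neither age, sex, time of day, feeding state nor the design of the knockout allele, and they do not say that the libraries came from separate animals, so p-values measure the spread between these libraries, which may be technical. All 33 genes passed the filter on low values. None passed edgeR's test over all genes, which called 1.7% of all tested genes. DESeq2 called 9 of the 31 to which it gave an adjusted p, where it called 10.8% of the 11936 genes that had one. The differences below are therefore given as values.

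Bile acids are made from cholesterol. The classic route starts with the 7-alpha-hydroxylase Cyp7a1, and an alternative route starts with the sterol 27-hydroxylase Cyp27a1 and continues with Cyp7b1. Peroxisomal enzymes then shorten the side chain, and Baat joins the acid to taurine or glycine. Transporters return bile acids from portal blood into the hepatocyte, other pumps secrete them and phospholipid into the bile canaliculus, and basolateral exporters offer a way back to blood. The nuclear receptor FXR and the intestinal hormone FGF15, which acts through Fgfr4 and its co-receptor Klb, restrain Cyp7a1, and Cyp7a1 transcription is known to follow a daily rhythm in liver.

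Library totals ran from 79708703 to 91316332 estimated counts. Cry1 itself, which would check the labels, had 413, 579 and 694 counts in WT 1, 2 and 3 and, in CRY1 KO 1, 2 and 3, counts of 561, 521 and 445 (log2 difference -0.03, SE 0.19, edgeR adjusted p = 0.954). This test showed no lower level with the CRY1 KO label (exact two-sided permutation p = 0.9, where 3 against 3 allows 0.1 at the least). The value covers the whole gene and cannot show a missing exon, and every direction below compares the libraries labelled CRY1 KO with those labelled WT. The 9 hepatocyte markers tested summed to between 84570 and 96460 CPM (counts scaled to a common library size) in each library. Alb alone held between 45886 and 62772 CPM, so the sum says little of the others. Of the 9, edgeR called 0, and 3 (Apoa1, Fgb and Ahsg) were lower in every CRY1 KO library. Markers of other cell types were present too. Those of Kupffer cells, the liver macrophages, summed to 707.5, 444.6 and 278.9 CPM in WT 1, 2 and 3, while CRY1 KO sums lay between 260.2 and 263.7 CPM. Of these 12 markers 8 were lower in every CRY1 KO library (12.7% of all tested genes were). Of the 12, edgeR called 0, limma-trend 0 and DESeq2 6 (10.8% of all genes to which it gave an adjusted p). Red cell and platelet markers summed to 2979 CPM in WT 1 and elsewhere to between 581.8 and 1025 CPM, and bile duct markers to between 141.5 and 187.7 CPM. In such bulk tissue fewer cells of a type and less RNA per cell cannot be told apart, and the part of these markers in the results below was not tested.

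Of 13816 genes tested with edgeR's quasi-likelihood test, 1.7% passed at an adjusted p under 0.05 (1.06% higher and 0.644% lower in CRY1 KO), against 0 of the 33. At an unadjusted p under 0.05 there were 11 of the 33, 7 higher and 4 lower, where the shares of all genes were 20.7%, 10.9% and 9.84%. The smallest adjusted p among them was 0.0644, for Abcb4. Groups did not overlap for 11 genes (33.3%), 7 of them higher and 4 lower in every CRY1 KO library than in every WT library, and the share over all tested genes was 27.3% (14.6% higher and 12.7% lower). The 7 were Cyp8b1, Slc27a2, Slc10a1, Slco1a1, Slco1a4, Slco2b1 and Abcb4, and the 4 were Hsd3b7, Slc22a7, Atp8b1 and Fgfr4. The log2 difference, CRY1 KO minus WT, was positive for 23 of the 33, against 47.3% of all tested genes, with a median of 0.18 for the 33 and -0.02 for all. The median of the 33 was 0.09 without WT 2 or without CRY1 KO 2.

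By role, the median log2 difference was 0.33 for synthesis, 0.04 for side-chain shortening and conjugation, 0.20 for uptake, 0.28 for canalicular export, 0.18 for basolateral export and -0.28 for the FGF15 receptor pair. Uptake held the most genes whose groups did not overlap, 5 of 7, followed by 2 of 7 in synthesis, 2 of 6 in canalicular export, 1 of 6 in the side-chain set, 1 of 2 in the receptor pair and 0 of 5 in basolateral export. The share for all tested genes was 27.3%, and no difference between roles was tested. Over the fits that leave out 1 library, the median ran from -0.052 (without WT 3) to 0.10 for the side-chain set and from 0.040 (without CRY1 KO 1) to 0.29 for basolateral export. DESeq2 called 9 of the 31 members to which it gave an adjusted p, where it called 10.8% of all genes that had one. These were Cyp7a1, Slc27a2, Slco1a1, Slco2b1 and Abcb4 as higher and Hsd3b7, Slc22a7, Atp8b1 and Fgfr4 as lower. The edgeR count was 2 without WT 1 (Slc10a2 and Abcb4), 5 without WT 3 (Slc27a2, Slco1a1, Slco1a4, Slco2b1 and Abcc2) and 0 without any other single library. Without WT 1 and WT 3 the shares of all genes called were 4.04% and 6.04%, and without WT 2 or CRY1 KO 1, 2 or 3 they were 0.121%, 0.285%, 0.143% and 0.214%. With 0 of the 33 called, the shares over all genes were 2.19% by limma-trend, 1.67% with RLE size factors, 0.818% without scaling, 1.57% without the filter and 0.68% with the replicate number as a block.

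**Figure D1:**
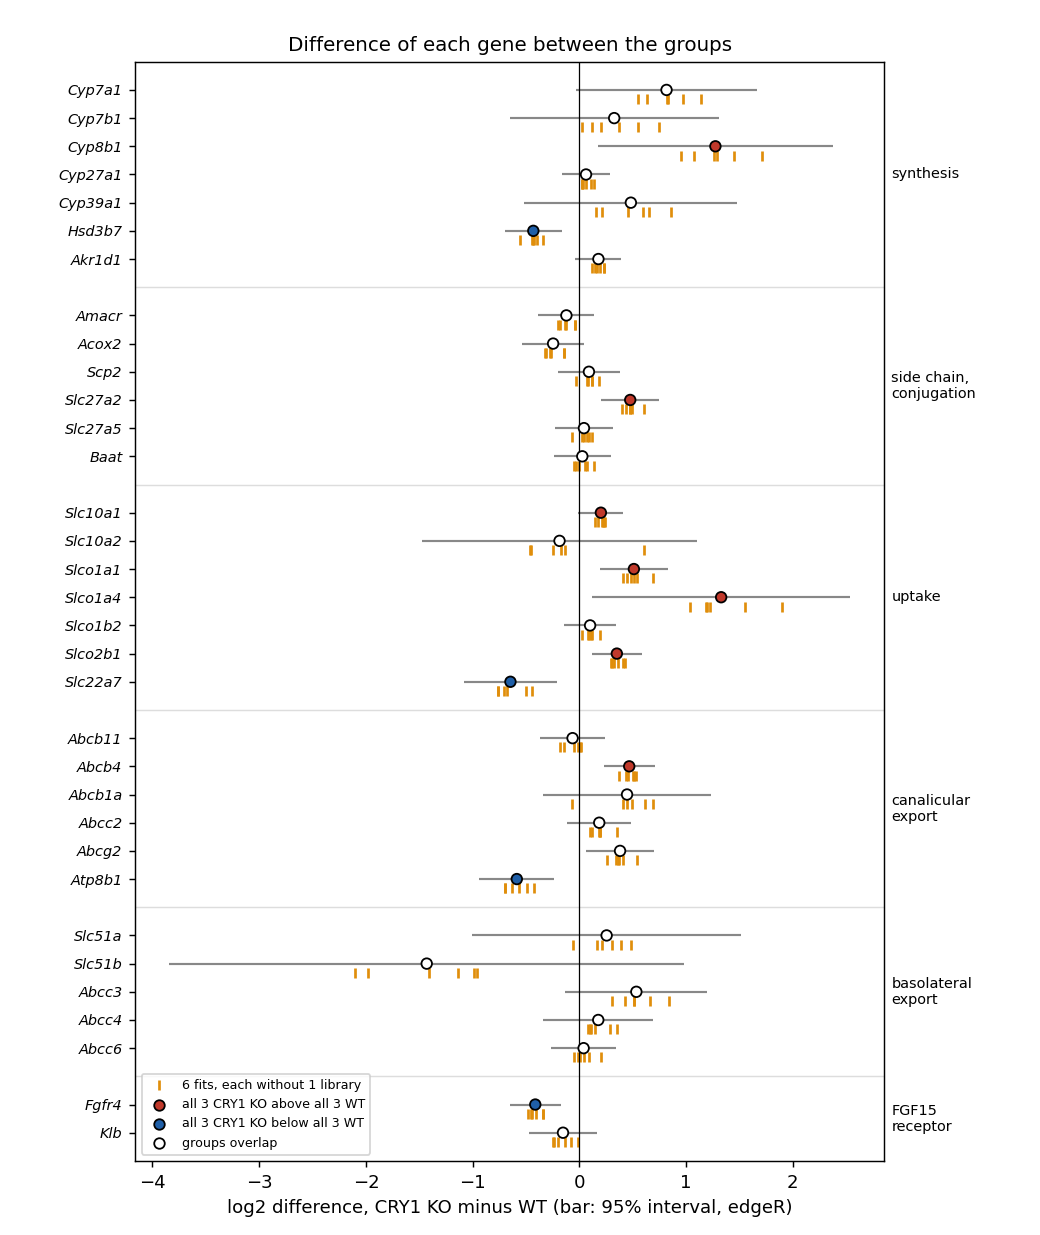
Log2 difference between CRY1 KO and WT for each of the 33 genes by role (circles, with edgeR 95% intervals as bars), coloured where all 3 CRY1 KO libraries lie above or below all 3 WT libraries. Orange ticks mark the 6 fits that each leave out 1 library, and 11 circles are coloured, 7 to the right of 0 and 4 to the left.

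The promoter sequences of 3 of the 4 members with AAGGTCA in a window are shown, and that of Abcg2 is not. AAGGTCA is an extended form of AGGTCA, a core to which nuclear receptors are known to bind. The letters searched do not tell which receptor might bind. RefSeq windows on build GRCm38.p6 were at hand for 23 of the 33 genes. This is not the build named by the submitters, and the windows serve only for letters. Each shows the 250 bases before the start site from 5′ to 3′ on the gene's strand, with every AGGTCA on either strand in capitals, extended to AAGGTCA where an A precedes it on its strand.

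Slc27a2 (chr2:126552774-126553023, plus strand): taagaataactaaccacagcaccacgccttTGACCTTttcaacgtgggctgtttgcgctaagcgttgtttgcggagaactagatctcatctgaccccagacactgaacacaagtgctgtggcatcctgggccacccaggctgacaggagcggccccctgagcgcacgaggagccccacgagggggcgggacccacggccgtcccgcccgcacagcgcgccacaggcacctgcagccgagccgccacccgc

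Slco1a1 (chr6:141946963-141947212, minus strand): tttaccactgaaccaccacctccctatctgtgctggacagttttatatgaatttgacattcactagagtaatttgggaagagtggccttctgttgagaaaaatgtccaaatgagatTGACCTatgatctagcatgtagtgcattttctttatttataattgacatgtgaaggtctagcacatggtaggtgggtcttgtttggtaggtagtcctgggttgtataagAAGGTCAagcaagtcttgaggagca

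Abcc2 (chr19:43782058-43782307, plus strand): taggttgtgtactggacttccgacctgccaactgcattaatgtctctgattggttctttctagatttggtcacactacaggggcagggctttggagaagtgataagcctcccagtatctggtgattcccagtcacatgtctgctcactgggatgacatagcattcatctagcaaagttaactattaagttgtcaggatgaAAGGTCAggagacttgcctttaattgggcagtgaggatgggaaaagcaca

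In the Slc27a2 window the core lies on the opposite strand at -220 to -214. In Slco1a1 it lies on the gene's strand at -25 to -19, close to the start site, and a further AGGTCA lies on the opposite strand at -134 to -129. In Abcc2 it lies on the gene's strand at -50 to -44. AAGGTCA was found in 4 of the 23 genes, in these 3 and in a window of Abcg2, and in 3.05% of 13922 windows of tested genes and 4.08% of all 32851 windows. By window, AAGGTCA was in 4 of the 30 windows of these 23 genes, some of which have several. The shorter AGGTCA, which AAGGTCA contains, was in 12 of the 30 windows, of 11 genes, and in 11.4% of windows of tested genes. The E-box CACGTG, bound by CLOCK and BMAL1, was found in Abcc4 and Slc51a, and in 7.87% of windows of tested genes. A D-box, searched as TTATGTAA, TTACGTAA or TTATGCAA, was found in Akr1d1 alone of the 23, and in 1.34% of windows of tested genes. All motifs were searched on both strands. A match describes letters in these windows, not a bound site.

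Cyp7a1 is the rate-limiting enzyme of the classic route. Its level was 53.5, 38.3 and 22.6 CPM in WT 1, 2 and 3 and 83.2, 65.9 and 52.1 CPM in CRY1 KO 1, 2 and 3. The lowest CRY1 KO library lay just under the highest WT library, so the groups overlapped. The log2 difference was 0.82 (SE 0.34, 95% interval -0.03 to 1.66, edgeR adjusted p = 0.255). WT libraries spread 2.37-fold from lowest to highest for this gene. Cyp8b1, the 12-alpha-hydroxylase that directs synthesis to cholic acid, stood at 273, 90.3 and 176 CPM in WT and at 551, 423 and 329 CPM in CRY1 KO. Every CRY1 KO library was above every WT library, and WT 2 was the lowest of all. The log2 difference of 1.27 (SE 0.44, 95% interval 0.17 to 2.38) did not pass (edgeR adjusted p = 0.196).

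Hsd3b7, the dehydrogenase that acts on the sterol ring after 7-alpha-hydroxylation, was lower in CRY1 KO. It was even across WT, at 451, 463 and 457 CPM, and stood at 324, 396 and 296 CPM in CRY1 KO. The groups did not overlap, and the log2 difference was -0.43 (SE 0.12, edgeR adjusted p = 0.0939). Cyp7b1, the oxysterol 7-alpha-hydroxylase of the alternative route, varied more within the groups than between them, with SDs of 138 and 139.6 CPM around means of 315 and 394 CPM. It stood at 472, 217 and 255 CPM in WT and at 373, 544 and 267 CPM in CRY1 KO (log2 difference 0.33, SE 0.39). The mitochondrial Cyp27a1, which opens that route, differed little between any libraries. WT levels lay between 471 and 544 CPM, CRY1 KO levels between 491 and 546 CPM, and the 95% interval of its log2 difference ran from -0.16 to 0.28. Akr1d1, the 5-beta-reductase of the sterol ring, stood at 107, 94.8 and 98.2 CPM in WT and at 112, 104 and 123 CPM in CRY1 KO (log2 difference 0.18, SE 0.09). Cyp39a1, which hydroxylates 24-hydroxycholesterol, ranged more, from 9.05 to 22.5 CPM over WT libraries and from 16.2 to 30.4 CPM over CRY1 KO libraries (0.48, SE 0.40).

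Slc27a2 encodes a very-long-chain acyl-CoA synthetase that activates fatty acids and bile acid intermediates. It stood at 850.4, 912 and 1121 CPM in WT and at 1355, 1299 and 1356 CPM in CRY1 KO. The CRY1 KO libraries were nearly level and all above WT, of which WT 3 came closest. The log2 difference was 0.48 (SE 0.12, edgeR adjusted p = 0.0805), and without WT 3 it was 0.60 (adjusted p = 0.0198). Leaving out the WT library nearest to CRY1 KO enlarges the difference by construction. Over the 12 alternative fits the adjusted p of Slc27a2 reached 0.27. The related Slc27a5, which activates returning bile acids for conjugation, had a log2 difference of 0.04 with a 95% interval from -0.23 to 0.32. Baat, the conjugating enzyme itself, had one of 0.03 with an interval from -0.24 to 0.29. The peroxisomal genes of side-chain shortening had log2 differences of -0.12 for the racemase Amacr, -0.25 for the oxidase Acox2 and 0.09 for the thiolase Scp2. For these 5 genes the groups overlapped and the intervals stayed within a 1.5-fold difference either way.

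**Figure D2:**
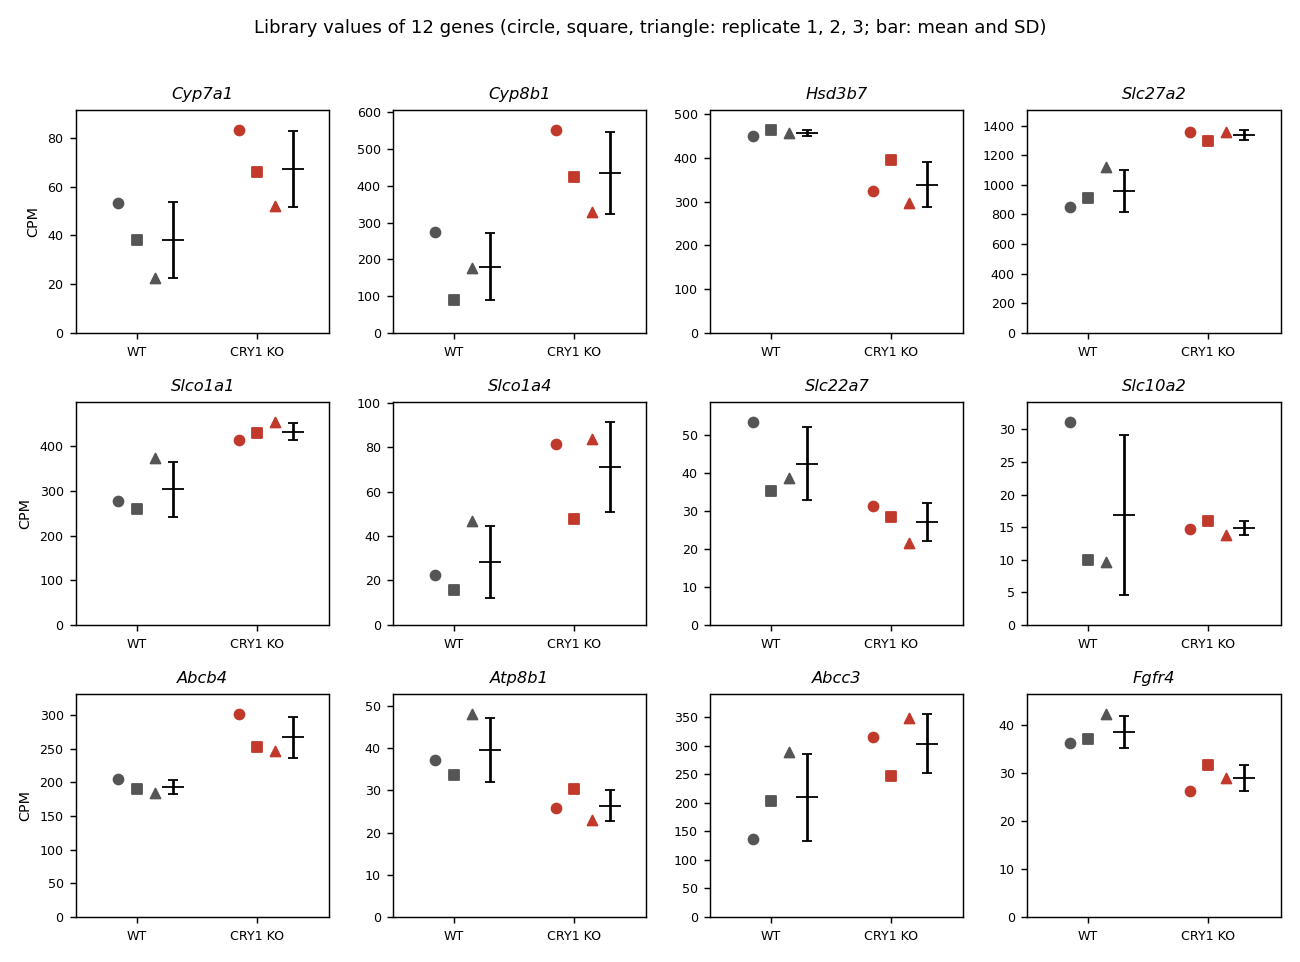
CPM of 12 of the 33 genes in each library (y axes start at 0; circle, square and triangle for replicates 1, 2 and 3; black bar for mean and SD, n = 3). For Cyp8b1, Slc27a2, Slco1a1, Slco1a4 and Abcb4 the lowest CRY1 KO library is above the highest WT library, and in Slc10a2 WT 1 stands apart from the other 5 libraries.

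Among uptake transporters, Slco1a1 and Slco1a4 encode organic anion transporters of a gene cluster with similar sequences, whose shared reads the authors' tools may have divided. Slco1a1 stood at 277, 260.1 and 375 CPM in WT and at 415, 429.9 and 454 CPM in CRY1 KO (log2 difference 0.51, SE 0.14, edgeR adjusted p = 0.0979). Slco1a4 stood at 22.4, 15.8 and 46.6 CPM in WT and at 81.4, 47.5 and 83.9 CPM in CRY1 KO (log2 difference 1.33, SE 0.48, adjusted p = 0.212). In both genes all CRY1 KO libraries were above WT, and WT 3 came nearest to them. Without WT 3 both passed, with log2 differences of 0.69 (adjusted p = 0.0123) and 1.90 (adjusted p = 0.0474). Leaving out the WT library nearest to CRY1 KO enlarges the difference by construction, so no conclusion is drawn from these passes. Over the 12 alternative fits the adjusted p reached 0.295 for Slco1a1 and 0.429 for Slco1a4. Slco2b1, an organic anion transporter with a broader tissue range, stood at 103, 105 and 122 CPM in WT and at 130.3, 138 and 152 CPM in CRY1 KO (log2 difference 0.35, SE 0.10, edgeR adjusted p = 0.11). It too passed without WT 3 (0.43, adjusted p = 0.0437), again the WT library nearest to CRY1 KO. Over the 12 alternative fits its adjusted p reached 0.315.

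Slc10a1, which encodes NTCP, the main sodium-dependent bile acid transporter of hepatocytes, stood at 443, 471 and 468 CPM in WT and at 510.1, 502 and 576 CPM in CRY1 KO. The groups did not overlap, yet the log2 difference was only 0.20 (SE 0.09, 95% interval -0.01 to 0.41, edgeR adjusted p = 0.26). Slco1b2, the liver-specific organic anion transporter, had a log2 difference of 0.10 with an interval from -0.15 to 0.35. Slc22a7, an organic anion transporter of the SLC22 family, was the only uptake gene whose CRY1 KO libraries all lay below WT. It stood at 53.3, 35.3 and 38.5 CPM in WT and at 31.4, 28.3 and 21.6 CPM in CRY1 KO (log2 difference -0.65, SE 0.19, edgeR adjusted p = 0.119).

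Slc10a2 encodes ASBT, the bile acid transporter of ileum and bile duct cells. It stood at 31.1 CPM in WT 1 and at 9.90 and 9.62 CPM in WT 2 and WT 3, against 14.7, 16.0 and 13.8 CPM in CRY1 KO. WT 1 was thus the highest library and the other WT libraries the lowest. With all libraries the log2 difference was -0.19 (SE 0.51, edgeR adjusted p = 0.871), and without WT 1 it was 0.60 (adjusted p = 0.0331). The bile duct markers summed to 179.8, 141.5 and 185.8 CPM in WT 1, 2 and 3, and between 167.4 and 187.7 CPM in CRY1 KO. Of the 11 tested, 5 were highest of all 6 libraries in WT 1 (Krt19, Krt7, Spp1, Cftr and Tspan8). Among them Krt19 stood at 2.06 CPM against 0.857 to 1.46 CPM elsewhere. A further 4 were highest in WT 3 (Epcam, Sox9, Slc5a1 and Pkhd1) and 2 in CRY1 KO 3 (Aqp1 and Slc4a2). The part of bile duct cells in the Slc10a2 values was not tested.

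At the canalicular membrane, Abcb4 flips phosphatidylcholine towards bile. It stood at 205, 190.2 and 184 CPM in WT and at 302, 253 and 247 CPM in CRY1 KO, with every CRY1 KO library above every WT library. The log2 difference was 0.47 (SE 0.11, 95% interval 0.23 to 0.71, edgeR adjusted p = 0.0644). It passed without WT 1 (0.51, adjusted p = 0.0479), the WT library nearest to CRY1 KO. Over the 12 alternative fits its adjusted p reached 0.218. Abcb11, the bile salt export pump, differed little, at 640.0, 617 and 476 CPM in WT and 614, 545 and 499 CPM in CRY1 KO. Its log2 difference was -0.06 with a 95% interval from -0.37 to 0.24. Atp8b1, a phospholipid flippase that returns aminophospholipids to the inner leaflet, stood at 37.2, 33.6 and 48.1 CPM in WT and at 25.7, 30.3 and 23.1 CPM in CRY1 KO. Its groups did not overlap (log2 difference -0.59, SE 0.15, edgeR adjusted p = 0.0902).

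Abcg2, the breast cancer resistance protein, was even in WT at 69.8, 70.7 and 73.8 CPM. In CRY1 KO it stood at 98.8, 108 and 72.6 CPM, so CRY1 KO 3 lay within the WT range while the others were above it (log2 difference 0.38, SE 0.14, edgeR adjusted p = 0.175). Abcc2, which exports conjugated bilirubin and other organic anions, stood at 389, 378 and 525 CPM in WT and at 495, 484 and 489.8 CPM in CRY1 KO. The CRY1 KO libraries were close together, WT 3 was the highest of all, and the log2 difference was 0.19 (SE 0.13, adjusted p = 0.451). Without WT 3 it was 0.35 (adjusted p = 0.0479), and over the 12 alternative fits the adjusted p of Abcc2 reached 0.793. Abcb1a, a multidrug transporter with a close paralog in Abcb1b, stood at 3.99 CPM in CRY1 KO 3 and between 1.57 and 1.93 CPM in the other 5 libraries.

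Of the basolateral exporters none had groups that did not overlap. Abcc3, which exports glucuronides and bile acids to blood, stood at 137, 203 and 289 CPM in WT and at 314, 247 and 349 CPM in CRY1 KO (log2 difference 0.53, SE 0.28, edgeR adjusted p = 0.328). WT 3 lay inside the CRY1 KO range. Abcc4 had a log2 difference of 0.18 and Abcc6 of 0.04. The subunits of the organic solute transporter had few counts, with between 12 and 24 counts a library for Slc51a and between 5 and 95 for Slc51b. Slc51b had 85 and 95 counts in WT 1 and WT 2 but 5 in WT 3, and 6, 38 and 22 in CRY1 KO. With such spread the 95% interval of its log2 difference ran from -3.84 to 0.98, and its adjusted p was 0.465 (edgeR).

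Fgfr4, the hepatic receptor of FGF15, stood at 36.2, 37.0 and 42.2 CPM in WT and at 26.1, 31.7 and 28.9 CPM in CRY1 KO. All CRY1 KO libraries were below WT, with a log2 difference of -0.41 (SE 0.11, 95% interval -0.65 to -0.17, edgeR adjusted p = 0.0831). Its co-receptor Klb stood at 15.6, 16.3 and 20.9 CPM in WT and at 15.4, 14.2 and 17.9 CPM in CRY1 KO. Those groups overlapped, and the log2 difference was -0.15 (SE 0.14). Fgf15 was not analysed here.

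**Figure D3:**
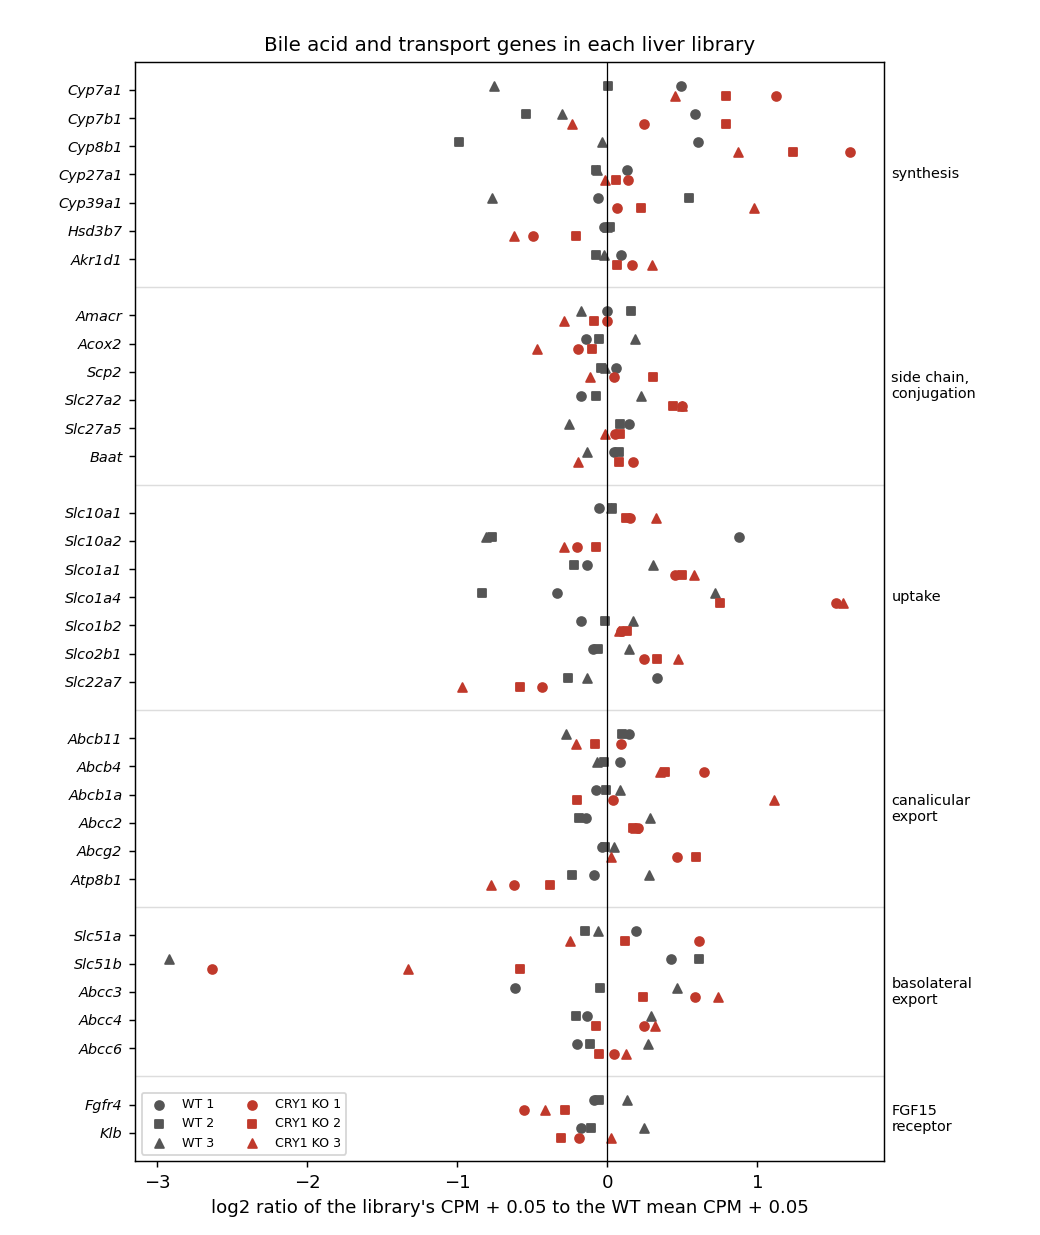
Each library's CPM of the 33 genes as a log2 ratio to the gene's WT mean, with 0.05 CPM added to both (grey for WT, red for CRY1 KO; circle, square and triangle for replicates 1, 2 and 3). Cyp7a1, Cyp8b1, Slc10a2, Slco1a4 and Abcc3 are among the genes whose WT libraries lie more than 2-fold apart.

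The members differed in how steady they were among libraries of the same group. The highest WT library was at least 2 times the lowest for 8 of the 33 genes, and the same held for 4 genes in CRY1 KO. Genes of the 8 were Cyp7a1, Cyp7b1, Cyp8b1, Cyp39a1, Slc10a2, Slco1a4, Slc51b and Abcc3, so 4 of the 7 synthesis genes were among them. The share of all tested genes with such a spread was not counted, so these counts do not set the members apart. The SD as a percentage of the mean had a median of 15.3% in WT and 12.8% in CRY1 KO over the 33 genes, and of 14.2% and 10.1% over all tested genes. For 14 of the 33 the 95% interval stayed within a 1.5-fold difference either way, against 47.4% of all tested genes. These 14 included Cyp27a1, Slc27a5, Baat, Slc10a1, Slco1b2 and Abcb11.

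Of 23 regulators of these genes that were tested, edgeR found that 1 rose, 0 fell and 22 did not pass. DESeq2 called 9 higher and 1 lower, and limma-trend 2 higher. The shares of all genes called were 1.7% by edgeR and 2.19% by limma-trend, and 10.8% by DESeq2 of the genes to which it gave an adjusted p. The groups did not overlap for 12 of the 23 (52.2%, against 27.3% of all tested genes), of which 10 were higher and 2 lower in CRY1 KO. Hnf4a, a hepatocyte receptor known to act on Cyp7a1 and Cyp8b1, stood at 479, 399.8 and 353 CPM in WT and at 613, 717 and 711 CPM in CRY1 KO. The groups were well apart, and Hnf4a rose (log2 difference 0.73, SE 0.13, edgeR adjusted p = 0.0389). Its call was lost without WT 2 (adjusted p = 0.168), CRY1 KO 1 (0.089), CRY1 KO 2 (0.16) or CRY1 KO 3 (0.164).

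Other regulators are named here after their values were seen. Nr1h4, which encodes FXR, stood at 69.5, 82.7 and 90.5 CPM in WT and at 118, 122 and 111 CPM in CRY1 KO, just short of the threshold (log2 difference 0.53, SE 0.11, edgeR adjusted p = 0.0515). Without WT 1 it passed (adjusted p = 0.0475), as it did without WT 3 (0.0231). Nr0b2, which encodes SHP, the FXR target that represses Cyp7a1, stood at 23.0, 41.0 and 42.6 CPM in WT and at 22.2, 34.1 and 26.6 CPM in CRY1 KO. Its groups overlapped (log2 difference -0.36, SE 0.27, adjusted p = 0.481). The xenobiotic receptor gene Nr1i3 had a log2 difference of 1.33 (SE 0.28, adjusted p = 0.0716) and Dbp, a clock output factor that acts on the Cyp7a1 promoter, of 2.12 (SE 0.44, adjusted p = 0.0837). Nr1i3 passed without WT 1 (0.0299) or WT 3 (0.0108), and Dbp without WT 1 (0.0156). With all libraries but no scaling, the edgeR adjusted p was 0.138 for Nr1h4, 0.168 for Nr1i3 and 0.164 for Dbp. Onecut1, a hepatocyte transcription factor, stood at 40.8, 76.9 and 74.5 CPM in WT and at 5.96, 29.9 and 16.8 CPM in CRY1 KO, and did not pass (adjusted p = 0.209).

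**Figure D4:**
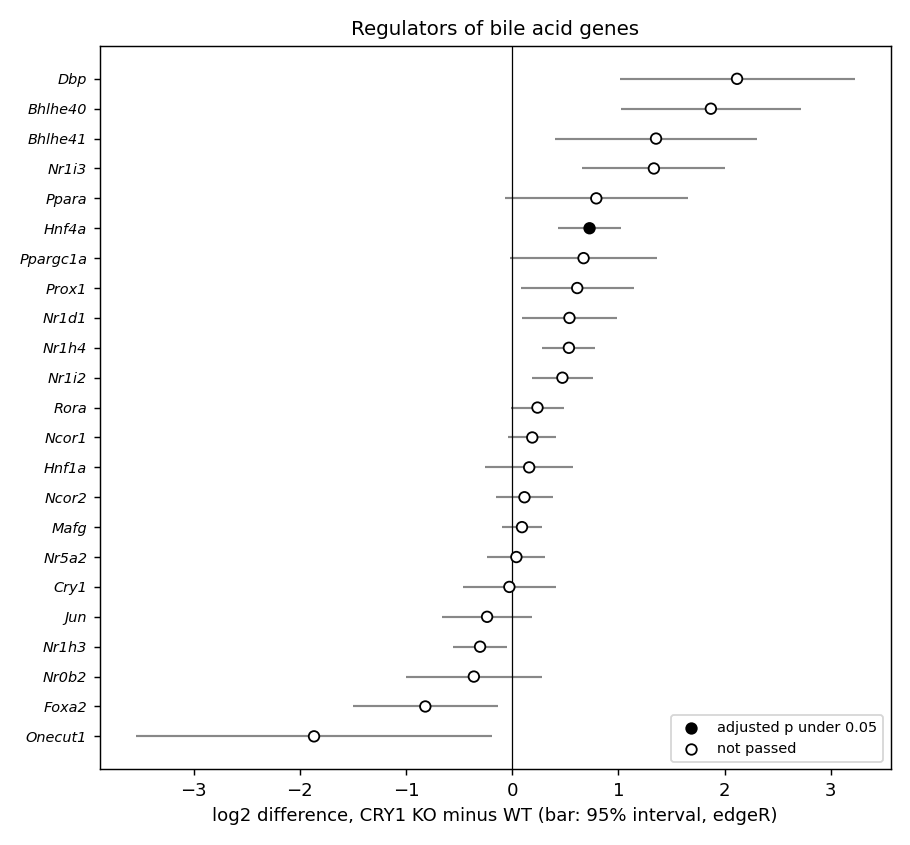
Log2 difference between CRY1 KO and WT for 23 tested regulators, ordered by value (circles, with edgeR 95% intervals as bars; filled where the adjusted p is under 0.05). Hnf4a is filled, Dbp is the highest at 2.12 and Onecut1 the lowest at -1.87.

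For the lists that follow, the share of all tested genes that passed in edgeR was 1.7%. Of 18 other enzymes of synthesis and conjugation, 1 rose, 0 fell and 17 did not pass. The gene that rose was Cyp3a11, a P450 that hydroxylates bile acids and drugs and has near-identical relatives. It stood at 2428, 1967 and 2348 CPM in WT and at 7830, 7463 and 5794 CPM in CRY1 KO (log2 difference 1.64, SE 0.15, edgeR adjusted p = 0.00379). Of 31 other hepatic transporters 1 rose, 0 fell and 30 did not pass. This was Slc22a5, the carnitine transporter, at 13.5, 12.2 and 11.8 CPM in WT and 20, 18.5 and 19.8 CPM in CRY1 KO (0.64, SE 0.10, adjusted p = 0.0273). The call of Slc22a5 was lost without WT 2 (adjusted p = 0.131) or CRY1 KO 1, 2 or 3 (0.0947, 0.107 and 0.129), while Cyp3a11 passed in all 6 such fits. Of 9 genes that anchor or traffic canalicular proteins, 0 passed in edgeR (0 at an unadjusted p under 0.05), DESeq2 or limma-trend, and all 9 had groups that overlapped. The 3 with the smallest p were Rdx, which encodes radixin, a linker of canalicular membrane proteins to actin, with a log2 difference of 0.24 (SE 0.11), Vipas39 with 0.12 (SE 0.10) and the scaffold gene Pdzk1 with -0.083 (SE 0.080).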

How the data were processed

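RNA of 6 liver libraries (3 WT, 3 CRY1 KO) was extracted with phenol-chloroform and made into stranded polyadenylated libraries, per the labels' protocols. The deposited table holds whole numbers that were taken here as estimated counts, a unit inferred from the values: in every library the value 3 was more frequent than 1, 2 or 4. HISAT2 2.2.1 and StringTie 2.1.7, with Trim Galore 0.6.7, limma 3.42.2 and build GRCm39 (mm39), are named in the submitters' processing notes. How the estimated counts were made, with which annotation and whether by strand is not given in the sources used here. The smallest gene sum deposited by the authors was 11.

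Genes were filtered (filterByExpr, minimum count 10, minimum total 15), which left 13816 of 15092, scaled by TMM and compared with edgeR 4.0.16 (quasi-likelihood, robust), adjusting p over every tested gene after Benjamini and Hochberg (threshold 0.05). The SE is the log2 difference divided by the square root of the F statistic, and 95% intervals use the test's degrees of freedom. The fit was tested on simulated data with planted changes. It recovered 34.3% of 67 genes changed 1.5-fold, 76.1% of 67 changed 2-fold and 97% of 66 changed 4-fold. Of its 160 calls, 22 were of genes with no planted change. A gene that did not pass may therefore still differ, and a single call may be false. Groups and replicate numbers came from the titles. Alternatives were RLE size factors, no scaling, DESeq2 1.42.0, limma-trend (limma 3.58.1, prior count 2), no filter, the replicate number as a block, and leaving out each library. Levels are compared within a gene, not between genes, since no lengths were used. The 243 list entries (229 matched, 1 through another symbol), which include the 33 members, were chosen with earlier results of these data known. All members were to be named, with the called genes of each other pathway list or, where none was called, the 3 with the smallest p. Results of 2 listed genes that are no members are not reported here. The promoter motifs were chosen after the values were seen.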

Additional observations from a re-analysis of the deposited data

How the results depend on the processing

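All 33 genes kept the sign of their log2 difference under RLE size factors, no scaling, DESeq2 and no filter, and 25 kept it in all 12 alternatives. Calls among the 33 stayed at 0 except with DESeq2, which gave 9 (2 in synthesis, 1 in the side-chain set, 2 in canalicular export, 3 in uptake, 1 in the FGF15 receptor pair), and without WT 1 or WT 3. Leaving out 1 library gave between 0 and 5 calls among the 33 (0 to 3 in uptake, 0 to 1 in the side-chain set, 0 to 1 in canalicular export) and between 17 and 844 among all genes. Fits without a library have fewer samples. Over all genes 113 passed without scaling, 1284 by DESeq2 and 94 with the replicate number as a block, against 235. The role median ran from 0.14 to 0.45 for synthesis and from 0.10 to 0.38 for canalicular export over the libraries left out, and that of uptake from 0.14 to 0.30, of the side-chain set from -0.052 to 0.10, of basolateral export from 0.040 to 0.29 and of the receptor pair from -0.34 to -0.18. The sign of Slc10a2 turned with limma-trend (0.043) and with the replicate block (0.050). Over the libraries left out it ran from -0.46 to 0.60, that of Abcb11 from -0.18 to 0.016, Abcc6 from -0.051 to 0.20, Slc27a5 from -0.070 to 0.12, Baat from -0.048 to 0.13, Scp2 from -0.033 to 0.19, Abcb1a from -0.073 to 0.69, Slc51a from -0.064 to 0.48 and Cry1 from -0.19 to 0.088. The cause was not tested.

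Same-numbered libraries did not deviate together (correlations of -0.066, -0.014 and 0.07), so the number was not taken as a pairing. With the replicate block the calls of Hnf4a (adjusted p = 0.0843) and Slc22a5 (0.0649) were lost, that of Cyp3a11 held, and Dbp passed (0.0497). Without scaling that of Slc22a5 (0.0596) was lost. Slc51b had between 5 and 95 counts a library, and its spread among WT libraries (85, 95 and 5 counts) limits what can be said of it.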

Other observations

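Several of these genes are known to differ along the liver lobule or between the sexes, and the lists for both are given as values. Over all tested genes 20.7% had an unadjusted p under 0.05 in edgeR. In every CRY1 KO library 12.7% were lower and 14.6% higher than in every WT library. DESeq2 called 10.8% of the genes to which it gave an adjusted p. Of 10 pericentral hepatocyte genes edgeR called 0 (3 at an unadjusted p under 0.05), DESeq2 3 and limma-trend 0. Their median log2 difference was -0.26, and 4 were lower in every CRY1 KO library than in every WT library. Of 10 periportal genes edgeR called 0 (3 at an unadjusted p under 0.05), DESeq2 1 and limma-trend 0, the median was 0.16, and 3 were higher in every CRY1 KO library. The Y-linked genes Ddx3y, Eif2s3y, Kdm5d and Uty summed to between 90.24 and 127.1 CPM, and all 4 were detected in every library. Of 12 genes known to be higher in male liver edgeR called 0 (4 at an unadjusted p under 0.05), DESeq2 1 higher and 1 lower and limma-trend 0, and 0 had groups that did not overlap. Of 8 tested genes known to be higher in female liver, edgeR called 3 higher (1.06% of all tested genes were) and 0 lower. These 3 were Cyp3a44 (log2 difference 1.69), Fmo2 (1.14) and Trim24 (0.72). DESeq2, which called 10.8% of the genes to which it gave an adjusted p, and limma-trend, which called 2.19% of all genes, each called 3 higher and 0 lower. The log2 difference was positive for 7 of the 8, against 47.3% of all tested genes. Of these, Cyp3a41a and Cux2 did not exceed 0.406 and 0.446 CPM. Acot3 stood at 3.04 CPM in CRY1 KO 3 and between 0.105 and 0.768 CPM elsewhere. Cyp17a1 had -2.21 (edgeR adjusted p = 0.342), which rests on WT 1. It stood at 25.6, 3.27 and 1.72 CPM in WT 1, 2 and 3 and between 2.04 and 2.48 CPM in CRY1 KO. Cyp3a44 is a relative of Cyp3a11, and the authors' tools may have divided reads shared by both.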
